A study of Mus musculus with 18 samples.

Results

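The genes described here are 10 genes that mark visceral endoderm, chosen by name: Afp, Ttr, Apoa1, Apob, Apoe, Cubn, Amn, Dab2, Hnf4a and Rhox5. All 10 were on the array with 1 probe set each, among 22180 named genes and 41345 probe sets. Expression was measured with Affymetrix arrays in embryoid bodies, free-floating aggregates of differentiating stem cells, grown from mouse embryonic stem cells of strain C57BL/6. The 6 groups, of 3 arrays each, were control cultures at 24, 48 and 72 h and cultures exposed for the same hours to 0.25 mM thalidomide, a human teratogen that binds the ubiquitin ligase receptor cereblon. Exposure started on day 3 of the embryoid body stage. Whether the controls received the vehicle (0.25% DMSO) is not settled by the labels, which name it under treatment but also speak of unexposed controls. Nor is their stage, since the hours of the controls are counted from the formation of the bodies. The labels call the arrays biological replicates without saying whether they came from separate cultures, and p-values measure only the spread between them.

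Visceral endoderm is the epithelium that surrounds the early embryo and later lines the yolk sac, and it also forms on the outside of embryoid bodies. It feeds the embryo in a pair of ways: it secretes carrier proteins and lipoproteins much as the liver does later, and it takes up maternal proteins through the receptors cubilin and megalin. The transcription factor HNF4A is needed for its secretory program. Rhox5 (also called Pem) is an X-linked homeobox gene that is also expressed in stem cells and trophoblast, and Dab2 and Apoe are likewise expressed outside this tissue.

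Values are log2 signals, so a difference of 1 is a doubling. They are given with the SD over 3 arrays for levels and with the standard error (SE) of the limma model for differences. A gene is said to have risen or fallen only when its adjusted p (Benjamini-Hochberg over all 22180 genes) was under 0.05. In whole embryoid bodies, fewer cells of a type and less RNA per cell cannot be told apart. No detection values were used, so a dim signal could not be set against background, and the levels of different genes were not compared. Array medians lay between 5.367 and 5.462, and arrays of a group correlated across genes at 0.992 to 0.996. A tag for re-analysis stands in the titles of 12 arrays (every control and the exposed ones at 24 h) and is missing from the 6 exposed arrays of later times, where it and thalidomide cannot be told apart.

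Over the control course from 24 to 72 h 4 of the 5 secreted carriers rose, and the 3 genes of the cubilin uptake complex and Rhox5 fell. Of the 10, 8 changed (4 up and 4 down), where 27.5% of all genes changed (13.1% up and 14.3% down). Afp, Ttr, Apoa1 and Apob rose and Cubn, Amn, Dab2 and Rhox5 fell, while Apoe and Hnf4a did not pass the test. The median change of the 10 was 0.05 and that of all genes -0.04. Of the 10 genes, the arrays of 24 and 72 h did not overlap for 9, with Hnf4a as the exception, compared with 41.9% of all genes. By interval, 3 of the 10 changed from 24 to 48 h (Ttr, Cubn and Amn), where 13.6% of all genes did. From 48 to 72 h 6 of 10 changed (Afp, Ttr, Apoa1, Apob, Cubn and Rhox5), where 6.53% did. The shares of all genes include dim genes, while all 10 genes lay above the median of mean signal. When only genes at or above that median were tested, 5447 genes were called from 24 to 72 h (8 of the 10). By interval 3290 (4 of the 10) and 1697 (6 of the 10) were called. Fewer genes were tested there, so the shares called were larger than those over all genes.

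**Figure D1:**
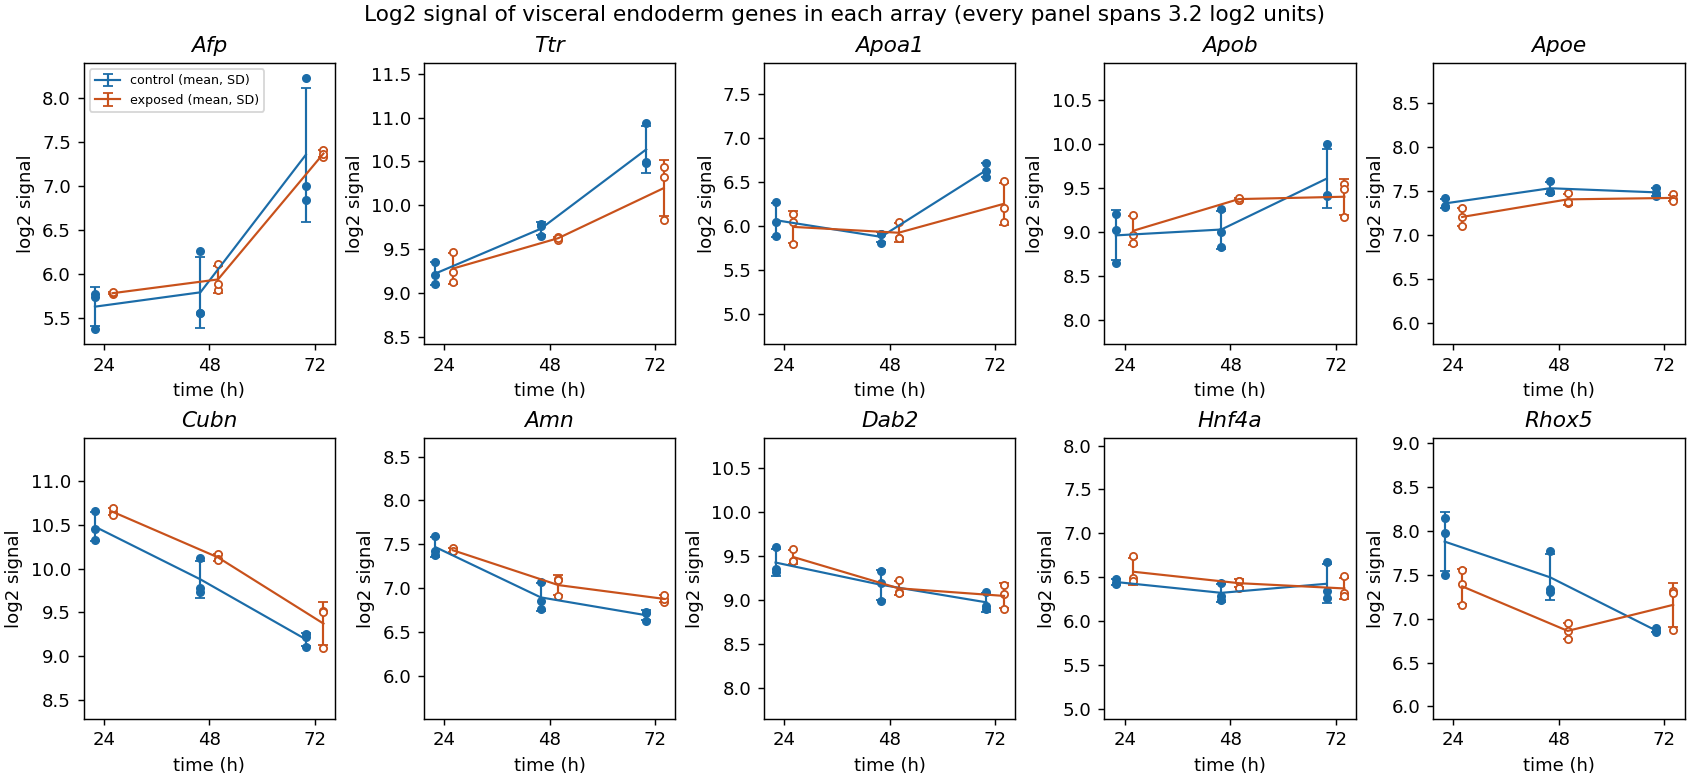
Log2 signal (vertical axis) of each gene in each of the 18 arrays against time in hours (horizontal axis), with filled points for control and open points for exposed arrays, and lines with bars for the group mean and SD (n = 3). Every panel spans the same number of log2 units, so slopes can be compared: Afp climbs from about 5.63 to 7.36 in control, Cubn descends from 10.47 to 9.19, and Hnf4a stays between 6.24 and 6.74 in all arrays.

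Afp encodes alpha-fetoprotein, the main plasma protein of the fetus. Its control signal was 5.74, 5.77 and 5.37 at 24 h, 5.56, 5.55 and 6.26 at 48 h, and 7.0, 6.84 and 8.23 at 72 h. The rise thus fell into the last interval, and replicate 3 of 72 h stood far above the other two. From 24 to 72 h Afp rose 3.32-fold (log2 change 1.73 ± 0.26 SE, adjusted p = 9.01e-05). Without replicate 3 of 72 h the log2 change was 1.30 and still passed. From 24 to 48 h the change of Afp was 0.16 ± 0.26 (adjusted p = 0.754), and from 48 to 72 h 1.57 ± 0.26 (adjusted p = 0.0013).

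Ttr encodes transthyretin, a carrier of thyroid hormone and, with retinol-binding protein, of retinol. Its control signal was 9.36, 9.21 and 9.10 at 24 h, 9.65, 9.79 and 9.76 at 48 h, and 10.48, 10.49 and 10.94 at 72 h. No array of one time overlapped those of another, and Ttr rose in each interval. It rose by 0.51 ± 0.15 from 24 to 48 h (adjusted p = 0.0265) and by 0.90 ± 0.15 from 48 to 72 h (adjusted p = 0.000928). Over both intervals it rose 2.66-fold (log2 change 1.41 ± 0.15, adjusted p = 1.49e-06). The call from 24 to 48 h was lost in 5 of 26 alternative settings, 4 of which left out 1 of its control arrays (replicate 2 or 3 of either time).

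The apolipoproteins did not move alike. Apoa1, the main protein of high-density lipoprotein, had control signals of 6.04, 6.27 and 5.89 at 24 h, 5.81, 5.91 and 5.91 at 48 h, and 6.72, 6.56 and 6.63 at 72 h. The arrays of 24 and 48 h overlapped, and those of 72 h lay above all others. Apoa1 rose by 0.76 ± 0.12 from 48 to 72 h (adjusted p = 0.000843) and by 0.57 ± 0.12 from 24 to 72 h (adjusted p = 0.0018). Apob, the structural protein of very-low-density lipoprotein, went from 9.21, 9.03 and 8.65 at 24 h and 8.83, 9.0 and 9.26 at 48 h to 9.42, 9.41 and 10 at 72 h. It rose by 0.65 ± 0.17 from 24 to 72 h (adjusted p = 0.00766). Without replicate 3 of 72 h, again the highest of its group, the rise of Apob was 0.45 and no longer passed (adjusted p = 0.0515). From 48 to 72 h Apob rose by 0.58 ± 0.17 (adjusted p = 0.048), a call lost in 17 of 26 alternative settings. Apoe, a ligand of lipoprotein receptors made by many cell types, had a change of 0.13 ± 0.07 (adjusted p = 0.186).

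Cubn, Amn and Dab2 fell. Cubn encodes cubilin, the receptor that binds transferrin, albumin and vitamin B12 with intrinsic factor. Its control signal was 10.65, 10.33 and 10.45 at 24 h, 9.73, 9.78 and 10.12 at 48 h, and 9.25, 9.11 and 9.22 at 72 h. The 3 times did not overlap, and Cubn fell by 0.60 ± 0.12 and then by 0.68 ± 0.12 (adjusted p = 0.00227 and 0.00161). From 24 to 72 h the level at 24 h was 2.43 times that at 72 h (log2 change -1.28 ± 0.12, adjusted p = 4.38e-07).

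Amn encodes amnionless, the membrane anchor that brings cubilin to the cell surface. It had control signals of 7.60, 7.38 and 7.43 at 24 h, 6.76, 6.86 and 7.07 at 48 h, and 6.72, 6.63 and 6.73 at 72 h. Most of its decrease lay in the interval from 24 to 48 h (-0.57 ± 0.08, adjusted p = 0.000171), and from 48 to 72 h its change was -0.20 ± 0.08 (adjusted p = 0.184). Over the whole course Amn fell by 0.77 ± 0.08 (adjusted p = 2.27e-06). Dab2, the clathrin adaptor that links megalin and its ligands to the endocytic machinery, fell by 0.45 ± 0.10 (adjusted p = 0.00279), from 9.60, 9.35 and 9.32 at 24 h to 8.89, 8.93 and 9.09 at 72 h. Neither interval alone passed for Dab2.

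Of the transcription factors, Hnf4a had control means of 6.45 ± 0.03, 6.32 ± 0.10 and 6.43 ± 0.22 (SD, n = 3). Its change from 24 to 72 h was -0.02, with a 95% interval from -0.24 to 0.20 (adjusted p = 0.914). Rhox5 went from 8.15, 7.50 and 7.98 at 24 h through 7.30, 7.34 and 7.77 at 48 h to 6.85, 6.86 and 6.89 at 72 h. The arrays of 24 and 48 h overlapped and those of 72 h were lower and close together. Rhox5 fell by 1.01 ± 0.16 over the course (adjusted p = 0.000149). Its decrease from 48 to 72 h (-0.60 ± 0.16, adjusted p = 0.0338) was lost in 5 of 26 alternative settings, 4 of which left out replicate 3 of 48 h or replicate 1, 2 or 3 of 72 h.

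The promoters of a pair of genes that rose and a pair that fell are shown because the 10 genes moved in opposite directions over the control course. Each run is the 250 bases before a RefSeq start site in GRCm38.p6, 5′ to 3′ in the direction of transcription, with capitals for a match to GTTAAT, the core of the motif of HNF1 factors. Dab2 has 2 start sites in RefSeq, and the window with a match is given.
Afp, chr5:90490464-90490713, plus strand: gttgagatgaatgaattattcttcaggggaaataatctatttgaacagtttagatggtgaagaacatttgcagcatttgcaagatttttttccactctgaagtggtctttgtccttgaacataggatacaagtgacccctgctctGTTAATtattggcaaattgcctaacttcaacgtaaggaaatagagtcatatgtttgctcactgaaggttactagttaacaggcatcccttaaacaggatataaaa
Apoa1, chr9:46228380-46228629, plus strand: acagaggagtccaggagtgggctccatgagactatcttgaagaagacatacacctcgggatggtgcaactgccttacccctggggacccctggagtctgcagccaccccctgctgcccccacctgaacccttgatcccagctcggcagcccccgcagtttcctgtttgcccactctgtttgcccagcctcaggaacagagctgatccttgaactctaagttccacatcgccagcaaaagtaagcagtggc
Cubn, chr2:13491877-13492126, minus strand: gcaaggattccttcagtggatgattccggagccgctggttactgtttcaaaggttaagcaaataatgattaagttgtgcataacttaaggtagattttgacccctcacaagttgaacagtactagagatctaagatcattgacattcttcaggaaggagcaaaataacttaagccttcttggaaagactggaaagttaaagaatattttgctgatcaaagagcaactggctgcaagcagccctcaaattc
Dab2, chr15:6386498-6386747, plus strand: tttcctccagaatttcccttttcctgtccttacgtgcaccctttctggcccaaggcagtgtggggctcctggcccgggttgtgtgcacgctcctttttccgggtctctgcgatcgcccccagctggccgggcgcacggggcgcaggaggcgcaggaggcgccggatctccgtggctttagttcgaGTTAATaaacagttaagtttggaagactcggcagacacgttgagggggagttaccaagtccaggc

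In all, 9 of the 10 genes had at least 1 such window (13 windows in total), and Ttr had none. The letters GTTAAT, searched on both strands, were found in 4 of the 13 windows, each of another gene (Afp, Apoe, Dab2 and Hnf4a), and in 6.43% of all 32851 windows. In Afp, which rose, the match covers bases 105 to 100 before the start, and in Dab2, which fell, bases 65 to 60. The letters AGATAA of the GATA motif were found in 1 of the 13 windows (Hnf4a) and in 9.99% of all. The letters CAAAGTC of HNF4 and TGTTTAC of FOXA were found in 0 of the 13 windows, against 3.84% and 3.17% of all. A match is only a description of these letters in these windows.

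With thalidomide, the number of the 10 genes that passed the test was near the share over all genes at each time, so these counts set the 10 genes apart from the others at none of them. At 24 h 0 of 10 passed the test in limma, with 2 of 10 at an unadjusted p under 0.05 (4710 of all genes), while 6.86% of all genes changed. At 48 h 1 of 10 changed, a decrease, where 6.08% of all genes changed and 4.23% fell. At 72 h 0 of 10 passed, with 3 at an unadjusted p under 0.05 (2023 of all genes), and only 2 of all 22180 genes (0.00902%) passed. The median difference of the 10 genes was 0.06, 0.08 and -0.02 at 24, 48 and 72 h, beside -0.01, 0.01 and 0 over all genes.

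**Figure D2:**
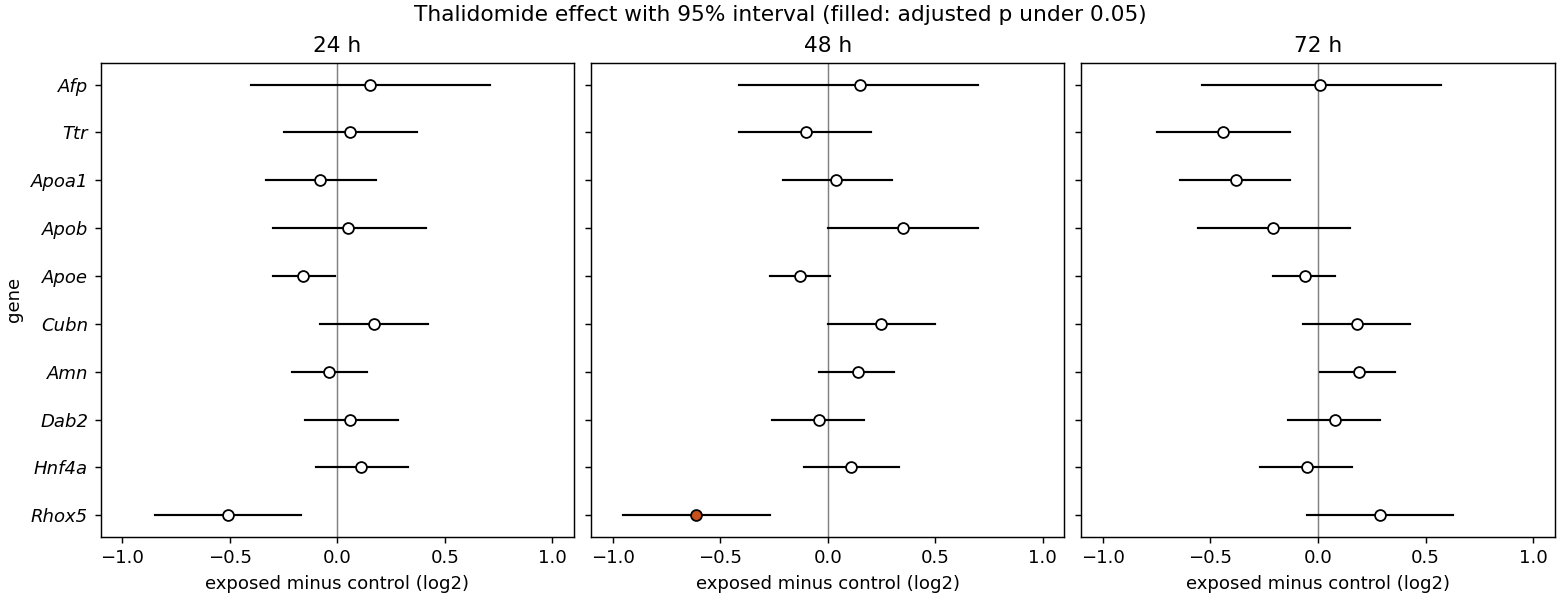
Difference between exposed and control arrays on the log2 scale (horizontal axis) for each gene (vertical axis) at 24, 48 and 72 h, with the 95% interval of the limma fit as a line and a filled point where the adjusted p was under 0.05. The Rhox5 point of 48 h, at -0.61, is the only filled one, and the intervals of Dab2 and Hnf4a lie between -0.27 and 0.33 at every time.

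Rhox5 had the largest differences between exposed and control arrays at 24 and 48 h. At 24 h its signal was 7.16, 7.39 and 7.55 in exposed and 8.15, 7.50 and 7.98 in control arrays. The groups overlapped, and the difference was -0.51 ± 0.16 (adjusted p = 0.0679). At 48 h the exposed arrays, at 6.95, 6.77 and 6.86, all lay below the controls, at 7.30, 7.34 and 7.77. Rhox5 was thus 1.53 times higher in control (log2 difference -0.61 ± 0.16, adjusted p = 0.0353). This call was lost in 8 of 26 alternative settings, among them cyclic loess (-0.55, adjusted p = 0.0574) and leaving out replicate 1, 2 or 3 of the controls or replicate 2 or 3 of the exposed arrays of 48 h (-0.70 to -0.46, highest adjusted p = 0.139).

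At 72 h the Rhox5 signal of exposed arrays was 6.87, 7.31 and 7.29, against 6.85, 6.86 and 6.89 in control, a difference of 0.29 ± 0.16 (adjusted p = 0.659). The groups overlapped through replicate 1 of the exposed arrays. The effect at 72 h exceeded that at 48 h by 0.90 ± 0.23 (adjusted p = 0.0981) and that at 24 h by 0.80 ± 0.23 (adjusted p = 0.111), and neither difference between times passed. Of the 10 genes 0 passed the test of 72 h against 48 h in limma, and 0.0947% of all genes did. At an unadjusted p under 0.05 were 3 of the 10 and 3110 of all genes.

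Among the carriers at 72 h, Apoa1 and Ttr were lower in exposed arrays in value without passing the test, and Afp, Apob and Apoe overlapped the controls. Apoa1 was at 6.21, 6.51 and 6.04 in exposed and 6.72, 6.56 and 6.63 in control arrays, and Ttr at 10.32, 10.44 and 9.83 against 10.48, 10.49 and 10.94. For both, all exposed arrays lay below all controls. The difference was -0.38 ± 0.12 for Apoa1 (adjusted p = 0.31) and -0.44 ± 0.15 for Ttr (adjusted p = 0.328), and without replicate 3 of the exposed arrays of 72 h these values were -0.27 and -0.25. Without replicate 3 of the controls of 72 h the Ttr value was -0.29. Afp at 72 h was at 7.41, 7.33 and 7.37 in exposed arrays, inside the wide control range of 6.84 to 8.23. Its difference of 0.01 had a 95% interval from -0.54 to 0.57, and turned to 0.45 without replicate 3 of the controls (adjusted p = 0.741). For Apob the difference at 72 h was -0.21 ± 0.17 (adjusted p = 0.801), and -0.01 without the same control array.

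None of the carriers passed at 24 or 48 h in limma (1 of 5, Apoe at 24 h, at an unadjusted p under 0.05, as were 4710 of all genes at 24 h). The differences of Afp, Ttr and Apoa1 at these times lay between -0.10 and 0.15. Apob at 48 h was at 9.37, 9.37 and 9.39 in exposed and 8.83, 9.0 and 9.26 in control arrays. All exposed arrays were above all controls, and the difference was 0.35 ± 0.17 (adjusted p = 0.221). Apoe was lower in exposed arrays in value at every time (-0.16, -0.13 and -0.06), with no overlap at 24 and 48 h. Its mean difference over the 3 times was -0.12 ± 0.04 (limma, adjusted p = 0.0578). For that mean 0 of the 10 genes and 13% of all genes passed. At an unadjusted p under 0.05 were 3 of the 10 and 6385 of all genes. Rhox5 had a mean difference of -0.28 ± 0.09 (adjusted p = 0.0585).

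Of Cubn, Amn and Dab2, Cubn alone was higher in exposed arrays in value at all 3 times, and none passed. Lrp2, the megalin gene of the uptake list below, was also higher in value at 24, 48 and 72 h (0.25, 0.28 and 0.40) without passing. Cubn was 0.17 ± 0.12, 0.25 ± 0.12 and 0.18 ± 0.12 higher in exposed arrays at 24, 48 and 72 h (adjusted p = 0.435, 0.213 and 0.717). Averaged over the 3 times its difference was 0.20 ± 0.07, which did not pass (adjusted p = 0.0608) but passed in 6 of 25 alternative settings, among them cyclic loess (0.23, adjusted p = 0.048). Amn differed by -0.04 at 24 h (adjusted p = 0.854) and by 0.14 at 48 h (adjusted p = 0.344), with overlapping arrays at both times. At 72 h Amn was at 6.84, 6.88 and 6.92 in exposed and 6.72, 6.63 and 6.73 in control arrays. Those groups did not overlap, and the difference was 0.19 ± 0.08 (adjusted p = 0.512). For Dab2 the differences were 0.06, -0.04 and 0.08, with 95% intervals from -0.26 to 0.29 over the 3 times. Hnf4a had differences of 0.11, 0.11 and -0.05, with 95% intervals from -0.27 to 0.33.

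Counted over the 10 genes, exposed and control arrays did not overlap for 1 gene at 24 h (Apoe), for 4 at 48 h (Ttr, Apoe and Rhox5 below, Apob above) and for 3 at 72 h (Ttr and Apoa1 below, Amn above). Over all genes the share without overlap was 25.1%, 29.2% and 14.8%. The exposed arrays were below for 15.9%, 16.9% and 7.51% of all genes at these times, and above for 12.3% at 48 h and 7.27% at 72 h.

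Over the course of exposure Afp and Ttr again rose and Cubn, Amn and Dab2 again fell, while Apoa1, Apob and Rhox5 did not pass. From 24 to 72 h of exposure 6 of the 10 genes changed (3 up and 3 down), where 25.1% of all genes did (14.4% up and 10.6% down). When only genes at or above the median signal were tested, 5160 genes and 6 of the 10 were called, again a larger share of the genes tested. Afp rose by 1.59 ± 0.26 (adjusted p = 0.000255), Ttr by 0.92 ± 0.15 (adjusted p = 0.00018) and Apoe by 0.22 ± 0.07 (adjusted p = 0.0251). The Apoe call was lost after cyclic loess (0.15, adjusted p = 0.104) and in 6 other alternative settings of 26. Cubn fell by 1.28 ± 0.12 (adjusted p = 6.83e-07), Amn by 0.55 ± 0.08 (adjusted p = 0.000107) and Dab2 by 0.44 ± 0.10 (adjusted p = 0.00413).

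Apoa1 (0.26 ± 0.12, adjusted p = 0.127), Apob (0.39 ± 0.17, adjusted p = 0.105) and Rhox5 (-0.21 ± 0.16, adjusted p = 0.373) passed in control but not in exposed arrays. The difference between the courses is the same quantity as the difference between the exposure effects of 72 and 24 h. It was -0.31 ± 0.17 for Apoa1 (adjusted p = 0.447), -0.26 ± 0.24 for Apob (adjusted p = 0.681) and -0.50 ± 0.21 for Ttr (adjusted p = 0.273). For Rhox5 it was 0.80 ± 0.23 (adjusted p = 0.111). Of the 10 genes 0 passed this test in limma, and 0.496% of all genes did. At an unadjusted p under 0.05 were 2 of the 10 and 3165 of all genes. For Cubn the courses differed by 0, with a 95% interval from -0.35 to 0.36. In the exposed course the re-analysis tag changes between 24 and 72 h as well, and its part in these values was not tested.

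**Figure D3:**
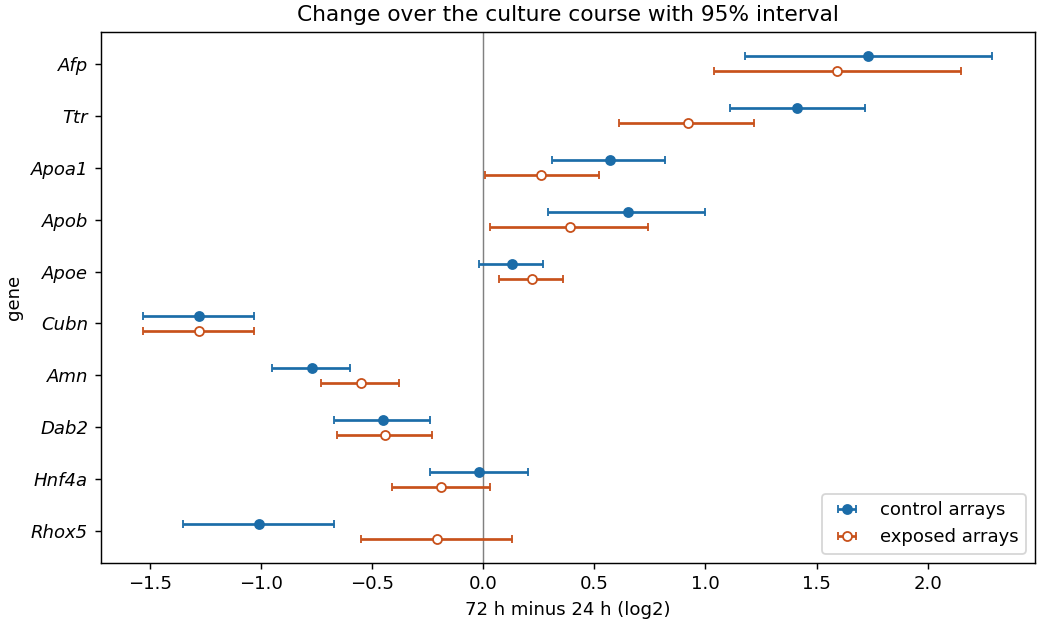
Change from 24 to 72 h on the log2 scale (horizontal axis) of each gene (vertical axis) in control (filled) and exposed (open) arrays, with 95% intervals of the limma fit. The intervals overlap for every gene shown except Rhox5, where the control interval ends at -0.67 and the exposed one starts at -0.55. The limma test of that difference between the courses did not pass (adjusted p = 0.111).

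Within a group, several of the 10 genes deviated in the same array. Replicate 3 of the 48 h controls was the highest of its group for 9 of 10 genes, and 33.4% of all genes were highest in that array. Replicate 3 of the 72 h controls was the highest for 8 of 10 (36.4% of all genes), as were replicate 1 of the 24 h controls (30.7%) and replicate 3 of the exposed arrays of 24 h (33%). At the other end, replicate 1 of the 48 h controls was the lowest of its group for 8 of 10 genes (33.3% of all genes), as was replicate 1 of the exposed arrays of 24 h (37.8%). On average the 10 genes lay 0.21 above their group mean in replicate 3 of the 72 h controls, and 0.18 above it in replicate 3 of the 48 h controls. Other genes known from visceral endoderm, from a list of 43 measured genes without the 10, were highest in the same arrays in 24 and 23 cases of 43. In replicate 1 of the 24 h controls they were highest in 18 cases, and in replicate 3 of the exposed arrays of 24 h in 22. Their largest count was 26, in replicate 1 of the exposed arrays of 48 h, where 7 of the 10 genes were highest (33.1% of all genes). The spread within groups was largest for Afp, with a pooled SD of 0.37, and smallest for Apoe, with 0.07.

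**Figure D4:**
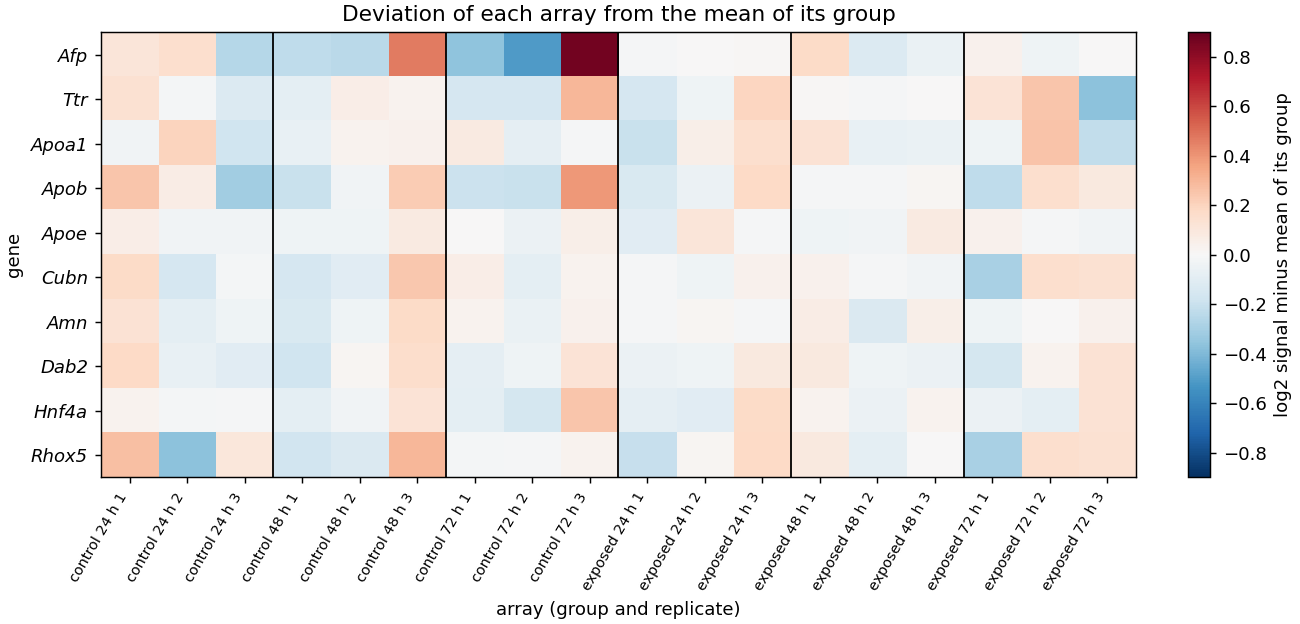
Deviation of each array's log2 signal from the mean of its group (colour scale, red above and blue below) for the 10 genes (rows) in the 18 arrays (columns, 3 per group, groups divided by black lines). Red columns stand out at replicate 3 of the 48 h and 72 h controls, where the mean deviation of the 10 genes was 0.18 and 0.21.

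Genes with the most similar pattern were sought for the 4 genes that changed and whose group means spanned more than 1 log2 unit, by Pearson correlation over all 18 arrays among 792 genes with such a span. These arrays share their times, so genes that follow time correlate. Afp was most like Sncaip (r = 0.919), Nuak1 (0.915) and Vgll2 (0.91). Ttr was most like Postn, which encodes the matrix protein periostin (r = 0.977), Arhgap31 (0.971) and P4ha3, a collagen prolyl hydroxylase subunit (0.969). Cubn was most like Nkx1-2, a homeobox gene of the posterior epiblast (r = 0.959), Slc4a11 (0.958) and Klf9 (0.953).

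Rhox5 was most like Srgn, the proteoglycan serglycin (r = 0.919), Aqp8, a water channel (0.911), and Hspb1, a small heat shock protein (0.89). Srgn and Aqp8 are on the list of markers of parietal endoderm, the sister tissue that lays down Reichert's membrane. Srgn had group means of 9.97, 9.33 and 8.91 in control and 9.57, 8.83 and 9.27 in exposed arrays at 24, 48 and 72 h. It fell with exposure at 48 h (-0.50 ± 0.13, adjusted p = 0.0358), but since it was chosen for its likeness to Rhox5 over these same arrays, this is no separate observation. The call was lost in 8 of 26 alternative settings.

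Of 43 measured genes of the visceral endoderm list (47 listed), 14 rose and 7 fell from 24 to 72 h in control (21 of 43, against 27.5% of all genes), with a median of 0.07. Fgb, the beta chain of fibrinogen, rose by 1.5 ± 0.21 (adjusted p = 4.52e-05) and Rbp4, the retinol carrier that binds transthyretin, by 1.40 ± 0.11 (adjusted p = 8.08e-08). Cer1, a secreted Nodal antagonist of anterior visceral and definitive endoderm, fell by 1.70 ± 0.26 (adjusted p = 9.64e-05). With exposure, 1 of the 43 fell at 24 h, the carbonic anhydrase gene Car4 (-0.40 ± 0.10, adjusted p = 0.0262). At 48 h 2 fell, the transcription factor gene Otx2 (-0.50 ± 0.12, adjusted p = 0.0258) and the ligand gene Bmp2 (-0.49 ± 0.13, adjusted p = 0.0355). Over all genes 6.86% and 6.08% changed at these times. At an unadjusted p under 0.05 were 7 and 13 of the 43, beside 4710 and 5161 of all 22180 genes. These small counts do not set the list apart from all genes. At 72 h 0 passed in limma, with 7 at an unadjusted p under 0.05 (2023 of all 22180 genes). For the mean of the 3 times 5 of the 43 passed (1 up and 4 down), against 13% of all genes.

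Of 23 measured genes of lipoprotein assembly and handling, 7 rose and 4 fell over the control course (median 0.04), where 27.5% of all genes changed. Apoc2, the activator of lipoprotein lipase, rose by 0.75 ± 0.12 and Apom by 0.69 ± 0.12, whereas Pltp, the phospholipid transfer protein gene, fell by 1.12 ± 0.11 (adjusted p = 0.000203, 0.00042 and 9.16e-07). With exposure, 2 of the 23 fell at 24 h and 2 changed at 48 h, where 6.86% and 6.08% of all genes changed. Those of 24 h were Pltp (-0.55 ± 0.11, adjusted p = 0.00757) and Sar1b, a GTPase for the export of large lipoproteins from the endoplasmic reticulum (-0.40 ± 0.09, adjusted p = 0.0114). At 48 h Pltp fell by 0.42 ± 0.11 (adjusted p = 0.0338, lost in 8 of 26 alternative settings) and Lcat, which esterifies cholesterol on lipoproteins, rose by 0.34 ± 0.08 (adjusted p = 0.0273). At 72 h 0 passed in limma, with 6 at an unadjusted p under 0.05 (2023 of all 22180 genes). For the mean of the 3 times 2 of the 23 fell and 0 rose, where 13% of all genes changed.

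Of 24 measured partners of endocytic uptake, 5 rose and 6 fell over the control course (median -0.02), where 27.5% of all genes changed. Lrp2, which encodes megalin, the receptor that works with cubilin, fell by 1.09 ± 0.15 (adjusted p = 2.63e-05), and the recycling gene Ehd1 by 0.51 ± 0.07 (adjusted p = 5.46e-05). Gipc1, an adaptor that binds the tail of megalin, rose by 0.39 ± 0.07 (adjusted p = 0.000312). With exposure 2 of the 24 changed at 24 h and 3 at 48 h, against 6.86% and 6.08% of all genes. Gipc1 fell at 24 h (-0.38 ± 0.07, adjusted p = 0.0039) and at 48 h (-0.36 ± 0.07, adjusted p = 0.00638). Ap2a2, a clathrin adaptor subunit, rose by 0.23 ± 0.06 at 24 h (adjusted p = 0.0319). At 48 h the sodium-proton exchanger gene Slc9a3 rose by 0.44 ± 0.09 (adjusted p = 0.0116) and Rab5c, of early endosomes, fell by 0.32 ± 0.07 (adjusted p = 0.0119). At 72 h 0 passed in limma, with 3 at an unadjusted p under 0.05 (2023 of all 22180 genes). Averaged over the 3 times, 5 of the 24 passed in limma (2 up and 3 down), against 13% of all genes. Lrp2 was 0.31 ± 0.08 higher in exposed arrays (adjusted p = 0.0255). Its call was lost in 1 of 25 alternative settings, without replicate 1 of the 48 h controls. Gipc1 (-0.25 ± 0.04, adjusted p = 0.000881) and the clathrin light chain gene Cltb (-0.2 ± 0.06, adjusted p = 0.0419) were lower.

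Among relatives of single members, Alb and Afm, neighbours of Afp in the albumin gene cluster, had 0 calls over the control course in limma and 0 at an unadjusted p under 0.05. Over that course 27.5% of all genes changed and 14.3% fell, and 8316 were at an unadjusted p under 0.05. Group means of Alb (3.90 to 4.19) and Afm (3.18 to 3.40) lay below the lowest array median, 5.367. With exposure neither gene passed at 24, 48 or 72 h. On the mean of the 3 times Alb was higher in exposed arrays (0.16 ± 0.05, limma, adjusted p = 0.049), where 13% of all genes passed. That call was lost in 17 of 24 alternative settings. Of 8 measured genes of the Rhox cluster besides Rhox5, 1 fell over the control course, Rhox11 (-0.46 ± 0.15, adjusted p = 0.0267), which is near the share of all genes that fell. With exposure 0 of the 8 passed at any time in limma. At an unadjusted p under 0.05 were 0, 1 and 2 of the 8 at 24, 48 and 72 h, beside 4710, 5161 and 2023 of all genes. Of all genes 6.86%, 6.08% and 0.00902% passed at these times. The Rhox11 change was -0.30 and did not pass without replicate 3 of the 24 h controls.

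Many exposure calls of 24 and 48 h on these related genes lay near the threshold. For all of those named in the visceral endoderm, lipoprotein and uptake lists, except Gipc1 at both times and Pltp at 24 h, leaving out 1 array of the groups compared could end the call. Of 26 alternative settings, the 24 h calls were lost in 5 for Car4, 6 for Ap2a2, 3 for Sar1b and 1 for Gipc1. The 48 h calls were lost in 5 for Otx2, 8 for Bmp2, 4 for Lcat, 2 for Rab5c and 1 for Gipc1, and in 2 of 25 for Slc9a3. The directions stayed the same in all of these settings. For the mean of the 3 times Bmp2 (-0.32 ± 0.08, adjusted p = 0.0122) and Car4 (-0.24 ± 0.06, adjusted p = 0.0146) were lower in limma. So was Sar1b (-0.2 ± 0.05, adjusted p = 0.0166). The calls of these genes and of Gipc1 on that mean held in all 25 alternative settings. Those of Pltp and Cltb were lost in 9 and 14 of 25.

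Markers of other cell types moved over the same hours. Of 12 pluripotent cell markers 7 fell and 1 rose from 24 to 72 h in control, where 27.5% of all genes changed, and their mean signal per array went from 6.79 to 6.89 at 24 h to 5.78 to 5.95 at 72 h. Of 13 definitive endoderm markers 8 fell and 1 rose, and of 18 parietal endoderm markers 4 rose and 4 fell. Of 9 trophoblast markers 2 rose and 2 fell, as did 2 and 2 of 10 markers of yolk sac mesoderm and primitive blood. With exposure, 5 of the 18 parietal endoderm markers rose at 24 h, where 6.86% of all genes changed, among them the laminin genes Lama1 (0.50 ± 0.13, adjusted p = 0.0338) and Lamc1 (0.50 ± 0.12, adjusted p = 0.0162), calls lost in 8 and 3 of 26 alternative settings. Other markers of that list had values below 0 at 24 h without passing, from -0.48 for Fst and -0.41 for Aqp8 to -0.27 for Snai1, with Srgn at -0.39 and Tfpi at -0.34 between them (these were named after their values were seen). Of the pluripotent markers Tdgf1, a Nodal co-receptor, fell at 24 h (-0.75 ± 0.21, adjusted p = 0.0432), a call lost in 14 of 26 alternative settings. Averaged over the 3 times, Tdgf1 (-0.52 ± 0.12), Lama1 (0.38 ± 0.08) and Lamc1 (0.27 ± 0.07) passed in limma and in all 25 alternative settings. By that mean 7 of the 18 parietal endoderm markers passed (6 up and 1 down). So did 2 of the 12 pluripotent markers (1 up and 1 down), against 13% of all genes. Of the definitive endoderm markers the chemokine receptor gene Cxcr4 (-0.42 ± 0.07, adjusted p = 0.00451) and the claudin gene Cldn6 (-0.41 ± 0.10, adjusted p = 0.0271) fell at 48 h, lost in 1 and 6 of 26. At 48 h, when Rhox5 was lower, the mean signal of the 18 parietal endoderm markers was 7.96 to 8.0 in exposed and 8.02 to 8.16 in control arrays. It was higher in exposed arrays at 24 h (8.22 to 8.32 against 8.17 to 8.2) and at 72 h (8.13 to 8.44 against 8.04 to 8.08). The mean of the 12 pluripotent markers was 6.07 to 6.23 in exposed and 6.06 to 6.14 in control arrays at 48 h. At 24 h it was 6.67 to 6.75 and 6.79 to 6.89, and at 72 h 5.85 to 6.17 and 5.78 to 5.95. The part of these markers in the results was not tested.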

How the data were processed

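Total RNA from 18 embryoid body samples was hybridised to Affymetrix arrays, 1 sample per array. The deposited table holds log2 signals, which per the submitters' processing notes come from RMA run in Affymetrix Expression Console 1.3. Because RMA makes arrays alike in distribution, every change is relative, and a rise or fall of most transcripts together is removed. The genome build was not stated.

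A single gene symbol was given by the platform annotation for 23521 of 41345 probe sets, and the brightest probe set stood for a gene (22180 genes). limma 3.58.1 in R 4.3.3 fitted the 6 group means per gene over all 18 arrays (12 residual and 4.35 prior degrees of freedom). Two-sided p-values of each of 10 contrasts were Benjamini-Hochberg adjusted over all genes, with a threshold of 0.05. The fit was tested on simulated data. Alternatives were a replicate block, cyclic loess, a filter at the median signal, all probe sets, probe set means, array weights, trended robust eBayes, only the groups compared, and leaving out each array. The members and lists were chosen with earlier results of these data known. From each list, up to 3 called genes with the largest change per exposure contrast and for the control course could be named, and for each member that changed and spanned more than 1 log2 unit, the 3 genes most like it by correlation. Promoters are from RefSeq (GRCm38.p6).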

Additional observations from a re-analysis of the deposited data

Results flagged for a closer look

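Among the genes named by rule, the exposure effect of Pltp, the phospholipid transfer protein gene, differed between times by test. It was -0.55 ± 0.11 (SE) at 24 h and 0.31 ± 0.11 at 72 h, a difference of 0.86 ± 0.16 (limma, adjusted p = 0.026). The 72 h value alone did not pass (adjusted p = 0.375), and exposed and control arrays of 72 h overlapped (7.81 in exposed, 7.85 in control). For this difference of Pltp the alternative settings were not recorded. For 2 genes of the marker lists, Nanog and Nid1, exposed and control arrays were fully separated at 24 h and again at 48 h but in opposite order. The difference between 24 and 48 h was not tested. The values of Nanog, a pluripotency factor, were -0.52 at 24 h and 0.24 at 48 h (limma, adjusted p = 0.242 and 0.608). For Nid1, a basement membrane protein, they were 0.37 and -0.22 (adjusted p = 0.0247 and 0.161). None of the 10 visceral endoderm genes met either condition.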

How the results depend on the processing

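No result changed direction past the threshold under the 8 alternative settings or when each of the 18 arrays was left out. The 3 arrays per group limit the precision. Replicate numbers showed no clear pairing of the arrays: of 9 same-numbered control and exposed pairs within a time, 1 correlated above 0.1 in its deviations (range -0.14 to 0.118). A differently numbered pair of 24 h reached 0.187. With 3 arrays per group this check cannot exclude pairing. With the replicate block, 4 genes were called at 72 h in place of 2, 70 in place of 110 for the effect at 72 h against 24 h, and 5 in place of 21 for 72 h against 48 h. The block ended the call of Apob from 48 to 72 h in control (adjusted p = 0.0504) and no other call among the 10 genes.

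Among the 10 genes, 1 was called at 24 h with the filter at the median signal and 1 with trended robust eBayes, in place of 0. At 48 h 0 were called in place of 1 with cyclic loess, with all probe sets and with only the groups compared. For the mean of the 3 times 1 was called with cyclic loess, 3 with the median filter, 1 with array weights and 3 with trended robust eBayes, in place of 0. The median filter, under which fewer genes were tested, also called 1 (Rhox5) for each difference between times. At 72 h 0 of 10 were called in every setting.

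With only the groups compared, 121 genes in place of 1521 were called at 24 h, 163 in place of 1349 at 48 h, 0 at 72 h, and 5 and 2 for the effect at 72 h against 24 and 48 h. The median filter called 38 genes at 72 h, and 640 and 365 for those differences. Trended robust eBayes called 30, 532 and 350. With all probe sets 0 were called at 72 h and 52 for 72 h against 24 h. Array weights called 89 for 72 h against 48 h. The cause of these changes in the counts was not tested. Cyclic loess moved the share of decreases among calls at 24 h from 79.2% to 65.2%, and for 72 h against 24 h from 22.7% to 38.7%. The setting with only the groups compared was not run for the mean of the 3 times.

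Leaving out 1 array at a time gave 581 to 1495 called genes at 24 h (fewest without replicate 3 of the 24 h controls) and 494 to 1549 at 48 h (fewest without replicate 2 of the exposed arrays). It gave 0 to 81 at 72 h (most without replicate 1 of the exposed arrays) and 805 to 1544 for control 72 h against 48 h (fewest without replicate 3 of 48 h). For the effect at 72 h against 24 h it gave 8 to 119 (fewest without replicate 3 of the 72 h controls), and against 48 h 2 to 31. Of the 10 genes 0 to 1 were called at 24 h, at 48 h and for the mean of the 3 times.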
